A study of Bos taurus with 28 samples.

Results

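A set of 45 transcripts was abundant in the bovine conceptus on days 7, 10 and 13 and low on days 16 and 19. They were chosen among 28054 measured transcripts (0.160%) by their median level per day. The level is RPKM: reads relative to all reads of the library and per kilobase of the transcript. A member had a median of at least 10 RPKM on each of days 7, 10 and 13, and each of those medians was at least 4 times the medians of both day 16 and day 19. Of 55 transcripts that met these terms, 9 were left out because their day 7 median was 4 or more times that of day 13, and 1 because its day 13 median was 3 or more times those of both earlier days. The members make up 0.716% of the 6289 transcripts whose medians were at least 10 RPKM on all of days 7, 10 and 13. Because measured values chose the set, its difference between the early days (7, 10 and 13) and the late days (16 and 19) is given below as a description and supports nothing. The member nearest to the limit, ENSBTAT00000048938, had a lowest early median 4.11 times its highest late median, and the nearest transcript outside, ENSBTAT00000046887, had 3.97 times. The number of members fell to 22 when day 16 replicates 2 and 3, counted as 1 sample, were left out, and to 27 without day 16 replicate 4.

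The study sequenced polyadenylated RNA of bovine conceptuses recovered from the uterus at 5 ages. The days stand for the blastocyst (7), the hatched sphere (10), the ovoid conceptus at the start of elongation (13), the filament at maternal recognition of pregnancy (16) and the filament at the start of implantation (19). All came from crossbred beef heifers about 18 months old, with synchronised cycles and inseminated from 1 bull. Per the labels' protocols, superovulation was used for days 7 and 10, and 5 embryos were pooled per library, whereas later conceptuses were processed singly without superovulation of the dam. The sample characteristics of day 13 state a pool and superovulation instead, so the labels disagree there. RNA preparation also changed with age: polyadenylated RNA was taken directly from conceptuses of days 7, 10 and 13, while total RNA was prepared first, with TRIzol and a column clean-up, on days 16 and 19. That change coincides exactly with the divide that defines the 45 members, so the RNA preparation and the age of the conceptus cannot be told apart in it. If the day 13 characteristics hold, pooling and superovulation change at the same divide. They could then not be told apart from age either.

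The blastocyst of cattle consists of an outer trophectoderm, an inner cell mass that gives the epiblast, and a hypoblast that comes to line the cavity. After hatching, the conceptus floats in the uterus for many days before it attaches, and the trophectoderm grows from a sphere through an ovoid form into a long filament. The filament secretes interferon tau, the signal by which the ruminant conceptus announces itself to the mother.

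The files give Ensembl transcript identifiers without gene names, and 0 of these 28054 could be found in the RefSeq gene table used here. The members are therefore named by identifier, no role can be given for any of them, and the marker genes of trophectoderm, epiblast, hypoblast or uterine cells were not analysed here. In RNA from whole conceptuses, fewer cells of a type and less RNA per cell cannot be told apart.

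After 3 libraries were left out because their file carries the title of a sample of another day, 17 early and 8 late libraries remained. In units of 1e6 reads, their totals were 0.474 to 6.50 on the early days and 1.84 to 10.9 on the late days. Day 16 replicates 2 and 3 differed by little more than sampling noise (chi-square per transcript 1.19, against 5.38 to 18.0 for the other pairs of that day) and were counted as 1 sample. This left 5, 7, 5, 3 and 4 replicates for days 7, 10, 13, 16 and 19. Nothing in the labels names the heifer behind each library, so a p-value here measures only how these samples spread. Day 7 replicate 5, day 10 replicate 7 and day 16 replicate 1 stand apart in the members' levels. Day 19 replicate 1 stands apart in only some members, and its median member was 0.07 above the other replicates of its day on the log2 scale.

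Most members were of moderate abundance while they were present. The mean of a member's 3 early medians was 12.5 RPKM at the lowest and 38.6 RPKM at the middle of the set, and it was under 100 RPKM in 38 of 45. The lowest early median was 4.11 to 70.0 times the highest late median, with a middle value of 6.52. In 12 members the ratio was under 5, in 16 it was at least 8 and in 3 it was at least 16. On the log2(RPKM + 1) scale, the early medians averaged 2.20 to 6.02 above the late medians, with a middle value of 3.09. Most of the set therefore had ratios under 8, with a short tail of much larger differences.

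**Figure D1:**
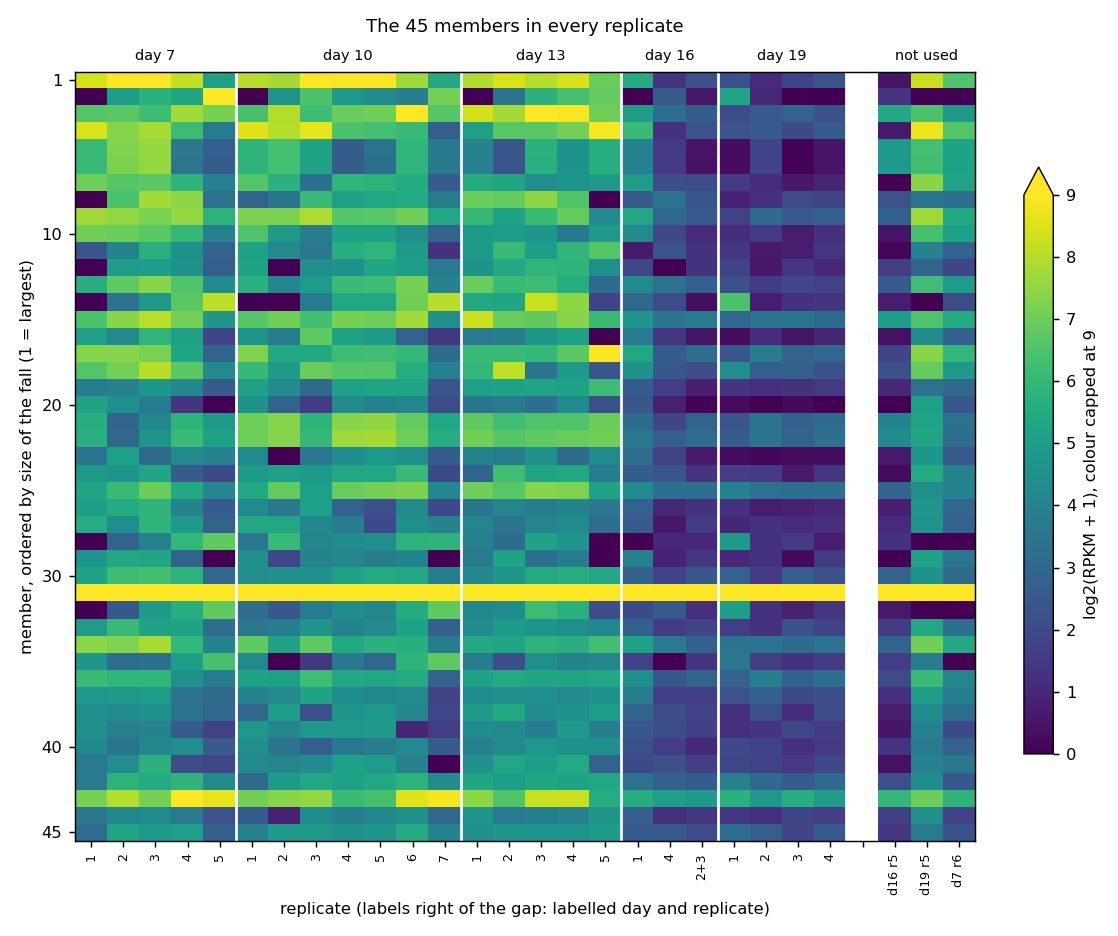
Level of each of the 45 members (one line per transcript, ordered by the difference between the early and late medians) in the 24 replicates (columns, grouped by day), as log2(RPKM + 1). The early columns are high and the late columns low, as the rule requires, while day 7 replicate 5 and day 10 replicate 7 are darker (lower) than their neighbours and day 16 replicate 1 is lighter (higher) than the rest of its day; the 3 libraries not used stand at the right.

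The members were reduced on the late days but seldom undetected. A read was found in every one of the 8 late libraries for 38 of the 45 members, and 7 members lacked a read in at least 1 late library. Detection could rest on few reads: ENSBTAT00000052895, found in all 8, had 26 reads in them together. The highest late median was under 5 RPKM in 30 members and under 1 RPKM in 2, ENSBTAT00000042800 and ENSBTAT00000056568. It was at least 10 RPKM in 4 members. Most of the set was thus low but still read after day 13. Finding a read also depends on the depth and number of libraries, which differ between the early and late days. These counts were not compared with those of all transcripts. On the early days, 33 members had a read in all 17 libraries, and the library with the most missing members, 6 of them, was day 7 replicate 1.

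Within the early days the members did not share 1 order. For 25 members the early median was highest on day 7, for 8 members on day 10 and for 12 members on day 13. It was lowest on day 7 in 13 members, on day 10 in 17 members and on day 13 in 15 members. The highest early median was 1.12 to 4.43 times the lowest, with a middle value of 2.17, and 22 members kept within 2-fold. The rule bounds this spread in part, since it left out transcripts with a much higher median on day 7 or day 13. The orders are those of medians, and replicates within a day also varied, as given below. In the tests below, 0 members passed from day 7 to day 10, 0 from day 10 to day 13 and 2 from day 7 to day 13.

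The largest difference belonged to ENSBTAT00000028122, a transcript of 1608 nt. Its level on day 7 was 348, 597, 763, 292 and 34.1 RPKM in replicates 1 to 5. On day 10 it ran from 42.0 to 666 RPKM with a median of 262, and on day 13 it was 244, 361, 255, 348 and 125 RPKM. All but 2 of the early replicates were above 100 RPKM, and the 2 low values were those of day 7 replicate 5 and day 10 replicate 7. On day 16 it was 45.7 RPKM in replicate 1, 3.65 in replicates 2 and 3 (as 1 sample) and 1.54 in replicate 4, and on day 19 it was 3.84, 1.11, 2.52 and 4.05 RPKM. The early and late ranges therefore overlapped through single libraries: day 16 replicate 1, at 45.7 RPKM, lay above the lowest early values. Counting reads, 32052 were found on the early days and 353 on the late days, of which 135 were in day 16 replicate 1. The means were 407 ± 282 RPKM on day 7 (SD, n = 5), 339 ± 217 on day 10 (n = 7), 267 ± 95.3 on day 13 (n = 5), 16.9 ± 24.9 on day 16 (n = 3) and 2.88 ± 1.36 on day 19 (n = 4). Its difference between early and late medians, 6.02 on the log2(RPKM + 1) scale, was 4.79 without day 16 replicate 4 and 4.82 without day 16 replicates 2 and 3. In no comparison within the early days or within the late days did this transcript pass the test. From day 16 to day 19 its log2 change was -1.16 ± 0.91 (SE; limma, adjusted p = 1).

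The second largest difference, in ENSBTAT00000042800, rests on few reads. This transcript of 191 nt had 431 reads in all early libraries and 44 in all late libraries, 39 of them in day 19 replicate 1. It was at 0, 30.3, 53.4, 38.1 and 918 RPKM on day 7, and from 0 to 138 RPKM with a median of 24.5 on day 10. On day 13 it was at 0, 9.70, 53.1, 79.0 and 115 RPKM. On day 16 it was at 0, 0.478 and 5.19 RPKM in replicate 1, replicates 2 and 3 together and replicate 4, and on day 19 at 38.2, 0.981, 0 and 0 RPKM. Each early day thus has a replicate at 0, and every late value lies within the early range.

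**Figure D2:**
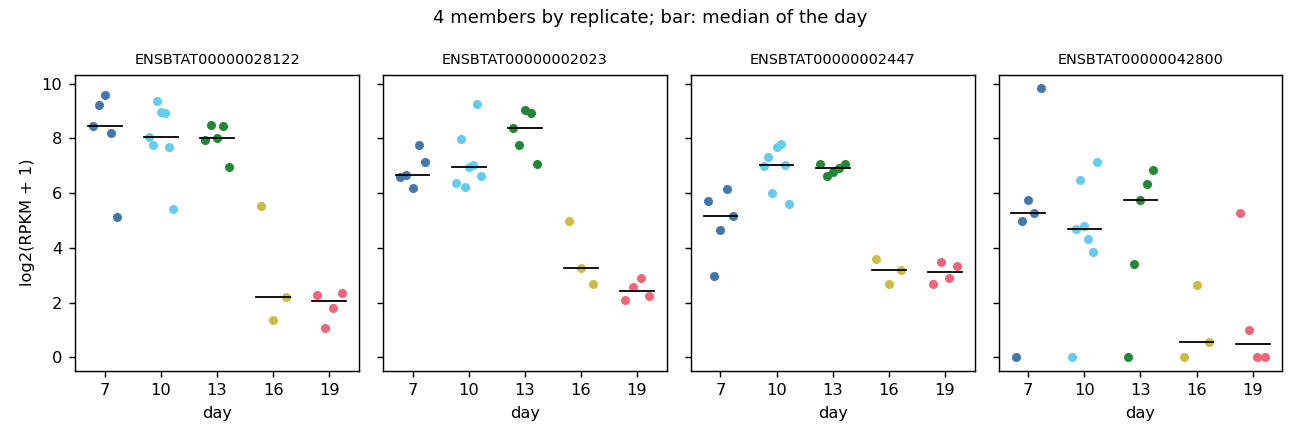
Level, as log2(RPKM + 1), of ENSBTAT00000028122, ENSBTAT00000002023, ENSBTAT00000002447 and ENSBTAT00000042800 in each replicate by day, with 1 point per replicate and a bar at the median of the day. ENSBTAT00000028122 has 1 low point on each of days 7 and 10 and 1 high point on day 16 (45.7 RPKM), and ENSBTAT00000042800 has a point at 0 on every day.

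In 4 of the 45 members every early replicate was above every late replicate, where 0.182% of the 19186 transcripts tested showed such a separation. The 4 were ENSBTAT00000002023, ENSBTAT00000011391, ENSBTAT00000021360 and ENSBTAT00000052076, named after their values were seen. The rule used these days, so nothing is read from the count. ENSBTAT00000002023, of 2267 nt, was at 96.1, 102, 72.8, 214 and 140 RPKM on day 7, from 73.7 to 609 RPKM with a median of 122 on day 10, and at 333, 217, 529, 485 and 131 RPKM on day 13. It was at 30.9, 5.35 and 8.53 RPKM on day 16 in replicate 1, replicates 2 and 3 together and replicate 4, and at 3.30, 4.92, 6.49 and 3.78 RPKM on day 19. This member has a gap between 30.9 RPKM, its highest late value, and 72.8 RPKM, its lowest early value, and the highest late value is again that of day 16 replicate 1. In the other three, day 7 replicate 5 or day 10 replicate 7 held the lowest early value.

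In 41 members the early and late replicates overlapped. Over all 45 members, the highest late value was in day 16 replicate 1 for 31, in day 19 replicate 1 for 10, in day 16 replicate 4 for 3 and in day 19 replicate 2 for 1. Without day 16 replicate 1, 17 members had no overlap (0.433% of all tested). On the early side, the lowest value was in day 7 replicate 5, day 10 replicate 7 or day 13 replicate 5 for 29 of all 45 members. Without those 3 early libraries 11 members had no overlap (1.06% of all tested), and without them and day 16 replicate 1 there were 27 (1.86%). Both choices of library were made after the values were seen.

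Median levels of the set differed between libraries of the same day. ENSBTAT00000042502, described below, is so abundant that it was set aside, and the median RPKM of the 44 other members was taken in each library. It was 32.1, 39.7, 53.5, 36.9 and 10.6 RPKM on day 7. On day 10 it was 28.2 to 45.03 RPKM in 6 libraries and 11.5 RPKM in replicate 7, and on day 13 it was 26.3 to 38.3 RPKM. On day 16 it was 8.22 RPKM in replicate 1 and 2.29, 2.35 and 3.30 RPKM in the other three libraries, and on day 19 it was 3.12, 2.02, 2.26 and 2.24 RPKM. The lowest early libraries, at 10.6 and 11.5 RPKM, and the highest late library, at 8.22 RPKM, thus came close to each other. The number of the 44 at or above 10 RPKM shows the same order: 22 to 42 on day 7, 24 to 42 on day 10, 33 to 43 on day 13, 20 in day 16 replicate 1, 2 or 3 in the rest of day 16, and 1 to 9 on day 19. The 44 were also taken as a share of the reads of each library other than those of ENSBTAT00000042502. This share was 0.297% to 0.688% on the early days. It was 0.103% in day 16 replicate 1, 0.0260% to 0.0311% in the other day 16 libraries and 0.0274% to 0.0437% on day 19.

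**Figure D3:**
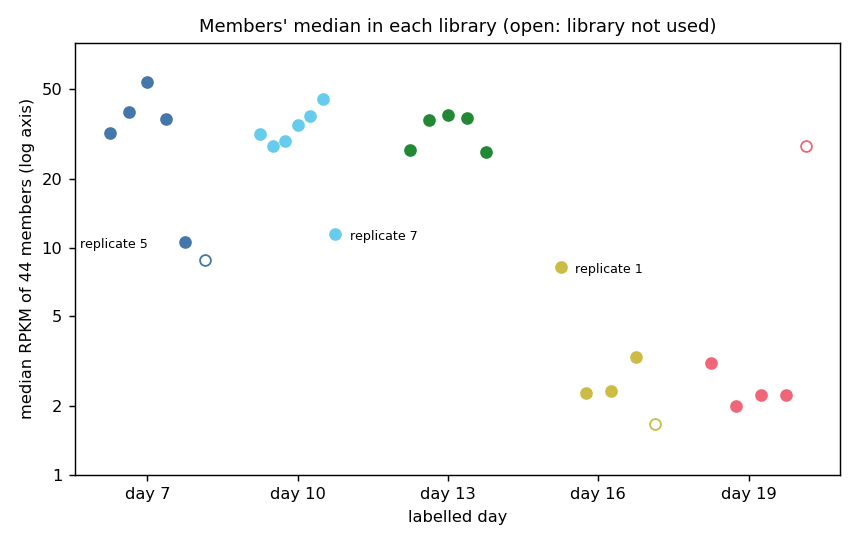
Median RPKM (log axis) of the 44 members other than ENSBTAT00000042502 in each library by labelled day, with the 3 libraries left out as open circles. Day 7 replicate 5 (10.6 RPKM) and day 10 replicate 7 (11.5 RPKM) lie below the other early libraries, and day 16 replicate 1 (8.22 RPKM) lies above the other late ones.

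For 37 of the 45 members (82.2%) day 16 replicate 1 held the top value of its day, as it did for 39.8% of all tested transcripts. The median member was 1.30 higher there on the log2 scale than in the other replicates of day 16, while the median of all tested transcripts was 0.05 higher. In 14 members its level was at least 4 times those of both other replicates. The rule used the median of day 16, so 1 high replicate did not keep a transcript out of the set.

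Day 7 replicate 5 was the lowest of its day for 30 members (66.7%, against 30.6% of all tested), and the median member was -1.87 from the other replicates of its day on the log2 scale, where all tested transcripts stood at -0.45. Day 10 replicate 7 was the lowest of its day for 26 (57.8%, against 21.1%), with medians of -1.63 and -0.50. These 2 libraries differ from the rest in another way: ENSBTAT00000042502 took 34.3% of the reads in day 7 replicate 5 and 38.4% in day 10 replicate 7. RPKM is scaled to the whole library, so such a share lowers every other value by construction. When the library total was taken without that transcript, the median of the 44 others was 16.1 RPKM in day 7 replicate 5 and 18.6 RPKM in day 10 replicate 7, which is still below the 28.2 RPKM of the next lowest library of those 2 days before such scaling. Day 13 replicate 5 was the lowest for 20 members (44.4%, against 38.5%), close to the share over all transcripts. The rule used the medians of days 7, 10 and 13, so a low replicate did not keep a transcript out of the set. These percentages were not compared with those of transcripts of like level.

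The members had a wider spread between replicates of a day than other transcripts with early medians of at least 10 RPKM. The median within-day SD of log2(RPKM + 1) was 1.31 for the members on day 7, against 0.68 for these 6244 transcripts, whose mean early median was 33.2 RPKM at the middle (38.6 RPKM for the members). On day 10 it was 1.19 against 0.73, on day 13 it was 0.77 against 0.48, and on day 16 it was 0.95 against 0.29. On day 19 the values were 0.45 and 0.32. With the library named above left out, it was 0.91 against 0.54 on day 7 (n = 4), 0.97 against 0.62 on day 10 (n = 6), 0.42 against 0.17 on day 16 (n = 2) and 0.32 against 0.29 on day 19 (n = 3). These values were added after the others had been seen. On days 16 and 19 the members are low by the rule and the transcripts beside them are not. The members were also chosen by ratios of medians of these same replicates, and the transcripts beside them were not. The part of that choice in the members' wider spread was not tested.

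ENSBTAT00000042502 was the most abundant transcript of the set and, at 92 nt, the shortest. Its level was 31179, 39085, 115932, 325025 and 3733188 RPKM on day 7. On day 10 it ran from 30144 to 4174812 RPKM with a median of 166228, and on day 13 it was 50504, 25700, 170806, 124529 and 71388 RPKM. The 2 highest early values are those of the libraries already named, far above all others. On day 16 it was 15108 RPKM in replicate 1, 13966 in replicates 2 and 3 together and 16293 in replicate 4. On day 19 it was 350149, 11719, 17424 and 16749 RPKM. Day 19 replicate 1 thus lies above most early replicates, and the late replicates other than that one lie between 11719 and 17424 RPKM. RPKM divides by length, so on this scale a short transcript reaches a given value with fewer reads.

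A group of 4 members, 191 to 710 nt long, followed this transcript from library to library. Within-day deviations of log2(RPKM + 1) from the day means were correlated with those of ENSBTAT00000042502 over the 24 replicates. Pearson's r was at least 0.7 for 4 of the 44 other members (9.09%), against 0.360% of the 19185 other tested transcripts. It was 0.80 for ENSBTAT00000056983 (710 nt), 0.76 for ENSBTAT00000045043 (312 nt), 0.76 for ENSBTAT00000042800 (191 nt) and 0.74 for ENSBTAT00000045035 (461 nt). These values describe 24 points that share library, depth and scaling, and the limit of 0.7 was set after the values were seen. Over the 44 members r ran from -0.74 to 0.80 with a median of -0.36, and it was negative in 35. The median over all tested transcripts was -0.14, so over the 24 replicates r was negative for most members and most other transcripts. For many members the sign changed when day 7 replicate 5, day 10 replicate 7 and day 19 replicate 1 were left out. For ENSBTAT00000011391 r went from -0.33 to 0.49, whereas for ENSBTAT00000014659 it stayed negative, from -0.74 to -0.53.

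The 4 that followed it had a median length of 386.5 nt, against 1565 nt for the other members. Length alone did not mark them, since ENSBTAT00000002967 (459 nt) had r = 0.01 and ENSBTAT00000024888 (567 nt) had r = -0.65. ENSBTAT00000045043 was at 85.8 RPKM in day 19 replicate 1 and at 0.6003, 1.47 and 1.58 RPKM in the other three replicates of that day. It was at 271 RPKM in day 7 replicate 5, where the other replicates were at 0, 9.26, 26.7 and 102 RPKM. ENSBTAT00000056983 was at 31.6 RPKM in day 19 replicate 1 and at 1.45, 0.777 and 1.67 RPKM in the rest, and at 110 RPKM in both day 7 replicate 5 and day 10 replicate 7. Both were highest of their day in day 7 replicate 5 and day 10 replicate 7, the libraries in which most members were lowest. With day 7 replicate 5, day 10 replicate 7 and day 19 replicate 1 left out, r was 0.70 to 0.87 for the 4, which were chosen on these same replicates. ENSBTAT00000045043, ENSBTAT00000042800, ENSBTAT00000056983 and ENSBTAT00000039714 (850 nt, r = 0.59 over the 24 replicates and 0.33 without those 3) were highest of their day in all 3 of these libraries, as were 0.834% of all tested transcripts, whereas ENSBTAT00000045035 was not.

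**Figure D4:**
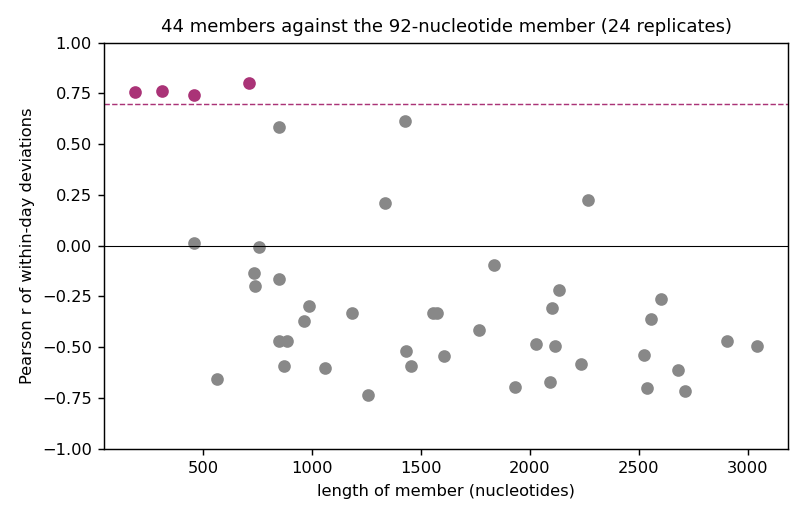
Pearson's r between the within-day deviations of each of the 44 other members and those of ENSBTAT00000042502 (vertical axis) against transcript length in nt, with 1 point per member and a dashed line at 0.7. The 4 members at or above 0.7 are 191 to 710 nt long, and most of the others lie below 0.

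Differences between the early days were tested, with the limit that the rule bounds day 13 against days 7 and 10 in part. Called means an adjusted p under 0.05 and an absolute log2 change of at least 1 in limma. From day 7 to day 10, 0 of the 45 members were called (0.00521% of all tested), 4 had an unadjusted p under 0.05 (8.89%, against 9.53% of all) and voom on the recovered reads called 2. The members' log2 changes ran from -1.41 to 2.03 with a median of -0.21, where the median of all was -0.04. From day 10 to day 13, limma called 0 (1.19% of all tested), 6 had an unadjusted p under 0.05 (13.3%, against 12.8%) and voom called 0. Those changes ran from -1.73 to 1.43, with a median of 0.18 against 0.07 for all. In both steps the members' shares at an unadjusted p were near those of all transcripts. The count from day 7 to day 10 was 2 without day 7 replicate 5, without day 10 replicate 3 or without day 10 replicate 7. The shares of all tested transcripts given here belong to the main limma fit. Counts with voom or without a replicate have no such share beside them, and nothing is read from them.

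From day 7 to day 13, 2 of the 45 members were called, both higher on day 13 (4.44%, against 4.04% of all tested called and 2.36% called higher). At an unadjusted p under 0.05 there were 8 (17.8%, against 16.8%). The share called is near the background. The count was 4 without day 7 replicate 5 (2 higher and 2 lower on day 13) and 6 with voom (4 higher and 2 lower). It was 1 without day 7 replicate 2 or without day 7 replicate 3. The shares above belong to the main limma fit, so these other counts cannot be set against them. The members' median log2 change was 0.17, with a range of -1.58 to 1.97, and the median of all was 0. The rule limits how far a member can move between these days in either direction.

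The 2 that rose were ENSBTAT00000002447 (735 nt) and ENSBTAT00000052001 (738 nt). ENSBTAT00000002447 was at 51.0, 6.94, 24.0, 69.7 and 34.5 RPKM on day 7, from 47.9 to 222 RPKM with a median of 129 on day 10, and at 134, 97.8, 109, 119 and 132 RPKM on day 13. Every day 13 replicate was above every day 7 replicate. The means were 37.2 ± 24.2 RPKM (SD, n = 5) on day 7 and 118 ± 15.2 (n = 5) on day 13, which in limma is a log2 change of 1.97 ± 0.46 (SE) with an adjusted p of 0.0116. Most of that step lay between days 7 and 10, where the change was 2.00 ± 0.42 and missed the threshold (limma, adjusted p = 0.073). It was then at 11.1, 8.25 and 5.40 RPKM on day 16 and at 5.35, 10.07, 6.51 and 8.99 RPKM on day 19, all above 5 RPKM.

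ENSBTAT00000052001 was at 50.7, 6.68, 17.6, 57.1 and 28.6 RPKM on day 7 and at 109, 74.4, 91.5, 90.6 and 126 RPKM on day 13. The means were 32.1 ± 21.4 (SD, n = 5) and 98.3 ± 19.9 RPKM (n = 5), and limma gave a log2 difference of 1.89 ± 0.47 (SE) with an adjusted p of 0.0185. Its call was lost without day 7 replicate 2, where the log2 change was 1.45 with an adjusted p of 0.0678, and also without day 7 replicate 3, where it was 1.77 with an adjusted p of 0.0519. The pair is not independent: r between their log2 levels was 0.995 over the 24 replicates and their lengths differ by 3 nt, so they may share reads, and their 2 calls may count 1 signal.

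**Figure D5:**
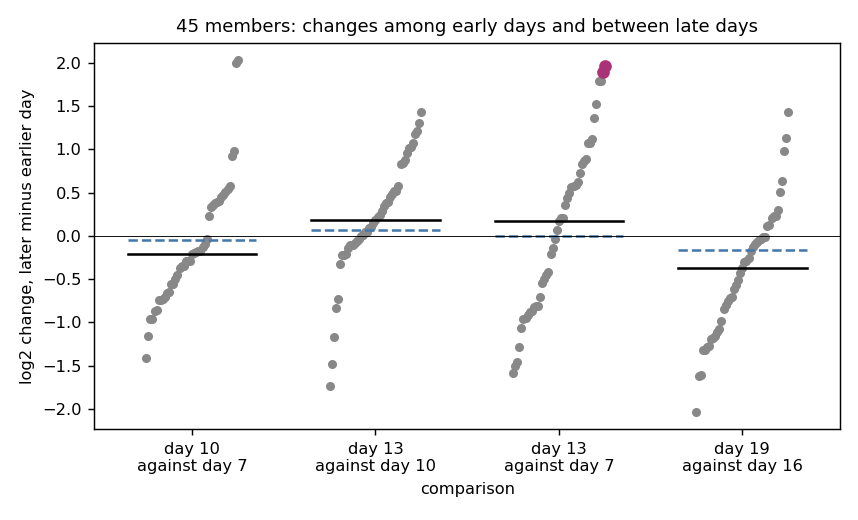
Log2 change of each of the 45 members in 4 comparisons within the early or within the late days (day 10 against 7, 13 against 10, 13 against 7 and 19 against 16), of which the rule bounds those with day 13, with 1 point per member, called members in purple, a solid line at the members' median and a dashed line at that of all tested transcripts. Only 13 against 7 holds called members, 2 in number, at 1.97 and 1.89.

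Within the late days, limma called 0 of the 45 members between day 16 and day 19 (0.235% of all tested). An unadjusted p under 0.05 was found for 2 (4.44%, against 6.75% of all), and voom called 0. The change was negative in 34 members and positive in 11, from -2.03 to 1.43, with a median of -0.37 where that of all tested transcripts was -0.17. By medians, which day 16 replicate 1 affects less, day 19 was lower in 29 members and higher in 16. A further decline after day 16 was not detectable with 3 and 4 replicates.

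For the comparisons that the rule did use, the counts are given without reading anything from them. From day 13 to day 16, 24 of the 45 members were called lower (2.24% of all tested were called lower), and from day 13 to day 19, 35 were (3.14%). All 45 had a negative log2 change in both, as the choice of members fixes. The members' median SD was 0.95 on day 16 (n = 3) and 0.45 on day 19 (n = 4), and its part in these counts was not tested. Without day 16 replicate 4 the first count was 12, and without replicates 2 and 3 it was 14.

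The 3 libraries left out give levels that the rule did not use. The one labelled day 19 replicate 5, whose file carries a title of day 7, had a median of 27.9 RPKM over the 44 members. Of these, 43 lay within the range of the early replicates, 40 lay above every late replicate and 0 lay below the early range. ENSBTAT00000028122 was at 308 RPKM there, like the early libraries. ENSBTAT00000042800, ENSBTAT00000045035, ENSBTAT00000045043 and ENSBTAT00000056983, the 4 members that followed ENSBTAT00000042502, were at 0 in that library, as in day 7 replicate 1. The one labelled day 16 replicate 5, whose file carries a title of day 19, had a median of 1.68 RPKM, with 25 of the 44 below every early replicate, 8 above every late replicate (ENSBTAT00000002023 among them, at 42.1 RPKM) and ENSBTAT00000028122 at 0.426 RPKM. The one labelled day 7 replicate 6, whose file carries a title of day 16, had a median of 8.83 RPKM, with 25 of the 44 above every late replicate, 4 below the early range and ENSBTAT00000028122 at 91.2 RPKM. Its median lies between those of day 16 replicate 1 (8.22 RPKM) and day 7 replicate 5 (10.6 RPKM).

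The members' median length was below that of other transcripts with early medians of at least 10 RPKM. Their lengths, recovered from the values, ran from 92 to 3043 nt with a median of 1431 nt and quartiles of 849 and 2116 nt. Those 6244 transcripts had a median of 1758.5 nt and quartiles of 1149 and 2550 nt. Under 500 nt there were 5 members (11.1%), against 3.73% of those transcripts. Length was not used by the rule, although short transcripts reach a given RPKM with fewer reads. No test was made of this difference.

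Some members are unlikely to be separate measurements. ENSBTAT00000001613 (1555 nt) and ENSBTAT00000030542 (1575 nt) had equal read counts in 18 of 25 libraries, and the median ratio of their RPKM values was 1.01, so they may share reads and are reported as uncertain. ENSBTAT00000001613 was at 66.9, 152, 191, 10.9 and 5.43 RPKM on day 7, at 14.7, 0.376 and 1.91 RPKM on day 16 in the same order as above and at 0.241, 2.53, 0.0592 and 0.3805 RPKM on day 19. It varied widely among day 7 replicates, and its day 16 replicate 1 lies above 2 of them. With this pair and the pair that rose to day 13, the 45 members hold fewer than 45 independent signals.

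The transcripts whose pattern was most like that of ENSBTAT00000028122 were found by Pearson's r of log2(RPKM + 1) over the 24 replicates, among all tested transcripts. They were ENSBTAT00000016392 (r = 0.957), ENSBTAT00000026380 (r = 0.941) and ENSBTAT00000002341 (r = 0.935). The first had medians of 441, 198, 86.6, 0.369 and 0 RPKM from day 7 to day 19, and the second 626, 381, 90.02, 3.70 and 0.791 RPKM. Both declined within the early days by more than the rule allowed and so were not members, whereas ENSBTAT00000002341 was one. Its medians were 139, 127, 121, 12.8 and 8.94 RPKM, nearly level over the 3 early days.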

How the data were processed

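The authors deposited 1 RPKM value per Ensembl transcript and library. Per the submitters' processing notes, CASAVA was among the tools. The aligner, genome build and annotation: not given in the sources used here. Reads, transcript lengths and library totals were worked back from the deposited RPKM, since 100.0% of values above 0 then came out as whole reads (within 1e-06). Groups follow the sample labels; 12 of 28 files carry the title of another sample, and the 3 titled for another day were left out. Medians per day chose the members. Changes were tested with limma 3.58.1 (R 4.3.3; eBayes, trend and robust options) on log2(RPKM + 1), all 5 days in 1 model, over the 19186 transcripts that reached 1 RPKM in 4 or more replicates, with Benjamini-Hochberg adjustment. Fold changes on this scale understate those of low transcripts. Tests were checked on simulated data. Alternatives changed the pseudocount, filter, centring, test, samples and rule. Members, gene lists and tests were chosen with earlier results of these data known. Named members were those with the 2 largest differences, the 2 highest early levels, called members without overlap and the nearest to the limit; others were named after their values were seen. The gene lists were not analysed here, because no identifier matched a gene name. Counts of reads cover counting error only.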

Additional observations from a re-analysis of the deposited data

Results flagged for a closer look

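ENSBTAT00000042502 stood at 18.42 on the log2(RPKM + 1) scale in day 19 replicate 1, where the next highest replicate of that day was at 14.09. The median of the 44 other members in day 10 replicate 7 was 3.64 on that scale, where the next lowest of that day was at 4.87. Both were picked out because 1 sample lay far from the rest of its day. Of 24 groups searched in this way 2 were found, and chance gives about 1 in 20, or 1.2.

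The 3 libraries outside the comparisons held signal for the members: the median over the 44 was 27.92 RPKM in the library labelled day 19 replicate 5, 8.83 RPKM in day 7 replicate 6 and 1.68 RPKM in day 16 replicate 5. The first lies within the range of days 7, 10 and 13, and its file title belongs to a day 7 sample.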

How the results depend on the processing

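The number of members depends on the limits of the rule: 68 with a minimum of 5 RPKM, 27 with 20 RPKM, 71 with a ratio of at least 3 and 16 with a ratio of at least 8. Means per day in place of medians gave 42 transcripts, of which 26 are among the 45. Leaving out 1 replicate at a time gave 22 to 51 members, 22 without day 16 replicates 2 and 3 and 27 without day 16 replicate 4. Members called from day 7 to day 10 were 0 to 2 when 1 replicate was left out, with 2 without day 7 replicate 5, day 10 replicate 3 or day 10 replicate 7. They were 2 with voom and 2 without day 7 replicate 5, day 10 replicate 7 and day 13 replicate 5, an alternative chosen after seeing the data. From day 7 to day 13 the count was 1 to 4 when 1 replicate was left out, 1 without day 7 replicate 2 or 3 and 4 without day 7 replicate 5. It was 6 with voom (2 of them lower on day 13) and 4 without the 3 early libraries (2 lower). From day 10 to day 13 and from day 16 to day 19 it was 0 under every alternative run. From day 13 to day 16 it was 12 to 27 when 1 replicate was left out (12 without day 16 replicate 4, 14 without replicates 2 and 3), and from day 13 to day 19 it was 30 to 37, and 16 with all 28 libraries as labelled. Shares over all tested transcripts are not given for these alternatives, so their counts are not set against a background. The cause of these shifts was not tested, and no value named in the comparisons changed sign. Depth limits the late levels: all 8 late libraries together held 44 reads of ENSBTAT00000042800. No paired analysis was possible because the labels give no replicate numbers: those used here follow the order of the samples within a day, and nothing ties samples of different days.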
